A study of Mus musculus with 6 samples.

Results

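The cytochrome b5 electron transfer genes Cyb5r1, Cyb5r2, Cyb5r3, Cyb5r4, Cyb5a and Cyb5b were followed in mouse hearts with a cre-driven knockout of Elac2. These 6 genes were taken by name from the 51888 features of the deposited count tables, and all 6 passed the filter on low counts, Cyb5r2 through its reads in knockout hearts alone. The family was chosen by its fold changes between the same knockout and control hearts, among which the values of Cyb5r1 and Cyb5r2 were high. The knockout and control values of the 6 genes are therefore given as a description, without p-values, and calls on them are counted only beside the share over all genes. The hearts came from 3 knockout mice (L/L, cre; genotype Elac2 -/-) and 3 control mice (L/L; genotype Elac2 +/+), all C57BL/6. Both groups carry the loxP-flanked Elac2 exon by the L/L in their titles, and cre came from the muscle creatine kinase promoter. This promoter is active in muscle cells, so other cells of the whole hearts may keep the exon. The labels give no age, and no group with cre but without loxP sites was analysed here.

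NADH-cytochrome b5 reductases carry a flavin that takes electrons from NADH and passes them to the haem of cytochrome b5, a small electron carrier. Reduced cytochrome b5 then feeds membrane enzymes such as fatty acid desaturases, sterol oxidases and some cytochromes P450, and on the outer mitochondrial membrane it feeds the amidoxime reducing component. In red cells a soluble form of Cyb5r3 keeps haemoglobin in its reduced state, and the same chemistry is known for myoglobin in muscle. Elac2 encodes RNase Z, which removes the 3′ trailer of nuclear and mitochondrial tRNA precursors.

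Libraries held 9850100 to 14461110 counted reads in knockout hearts and 12057962 to 14276410 in control hearts. Mitochondrially encoded genes took 33.3 to 36.7% of reads in knockout hearts and 49.3 to 61.1% in control hearts. Levels are CPM, counts relative to a TMM-scaled library size, and are given as mean ± SD over 3 hearts. Elac2 had 5.36, 5.63 and 6.52 CPM in knockout hearts, against 15.05, 14.00 and 13.01 CPM in control hearts. Its log2 fold change was -1.27 (SE 0.15, edgeR adjusted p = 0.000212). A gene was called at an adjusted p under 0.05 in the edgeR quasi-likelihood test across all genes, and 5215 of 14302 tested genes were called (36.5%), 2671 higher (18.7%) and 2544 lower (17.8%) in knockout hearts. With library size alone in place of TMM scaling, the median over all tested genes moved to a log2 fold change of 0.68, against -0.01 with TMM, and the calls were 8093 higher and 552 lower.

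The 250 bases before the RefSeq start were available for 4 members (GRCm38.p6) and are shown because these genes differ both in level and in the size of their difference between the groups. They are printed from 5′ to 3′ on the strand of the gene, with CpG dinucleotides in capitals. The intervals are chr1:134405531-134405780 for Cyb5r1, chr7:107758033-107758282 on the minus strand for Cyb5r2, chr9:87021779-87022028 for Cyb5r4 and chr8:107150411-107150660 for Cyb5b.
Cyb5r1: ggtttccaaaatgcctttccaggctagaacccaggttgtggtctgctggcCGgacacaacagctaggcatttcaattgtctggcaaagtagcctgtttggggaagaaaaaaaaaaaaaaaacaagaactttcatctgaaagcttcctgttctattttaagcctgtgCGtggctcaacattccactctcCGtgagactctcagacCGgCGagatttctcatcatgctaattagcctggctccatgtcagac
Cyb5r2: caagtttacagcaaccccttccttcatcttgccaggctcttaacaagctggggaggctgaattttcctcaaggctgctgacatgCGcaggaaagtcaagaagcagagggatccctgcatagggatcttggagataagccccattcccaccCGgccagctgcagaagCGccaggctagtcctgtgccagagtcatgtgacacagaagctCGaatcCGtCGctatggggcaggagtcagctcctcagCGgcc
Cyb5r4: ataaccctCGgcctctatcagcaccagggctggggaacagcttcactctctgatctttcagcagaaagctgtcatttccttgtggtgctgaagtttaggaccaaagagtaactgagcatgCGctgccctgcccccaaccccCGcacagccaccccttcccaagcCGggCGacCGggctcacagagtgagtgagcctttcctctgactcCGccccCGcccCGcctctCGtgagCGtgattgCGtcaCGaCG
Cyb5b: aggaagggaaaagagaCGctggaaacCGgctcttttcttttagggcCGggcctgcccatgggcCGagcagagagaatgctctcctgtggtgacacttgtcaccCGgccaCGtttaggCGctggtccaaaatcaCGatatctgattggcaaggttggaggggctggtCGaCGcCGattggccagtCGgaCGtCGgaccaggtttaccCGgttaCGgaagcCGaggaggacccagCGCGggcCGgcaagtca

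The Cyb5b window had 20 CpGs and 60.4% G and C, and the Cyb5r4 window had 14 CpGs at the same G and C content. The windows of Cyb5r1 and Cyb5r2 had 5 and 7 CpGs, with 46% and 56.4% G and C. Over 32851 RefSeq promoters of the same length the median was 6 CpGs, the tenth percentile was 1 and the ninetieth 25, so all 4 windows lay inside that range. 6 short motifs were searched on both strands. Cyb5b held the letters of CCAAT, a box common in promoters, in reverse at 108 and 76 bases before the start, and 33.8% of all promoters hold it. Cyb5r4 held TGACTCCGC at 48 bases before the start, a match to TGACNNNGC, the core of the antioxidant response element, which 10.2% of promoters hold. It also held TGACG, a cyclic AMP response element core found in 17.8% of promoters, in reverse at 10 bases before the start. The windows of Cyb5r1 and Cyb5r2 held none of these, nor TGATGNAA (3.45% of promoters), TATAAA (12.4%) or CACGTG (6.02%). Most of the Cyb5r1 window lies inside the annotated gene, which starts at chr1:134405559. The bases before that start were therefore mostly not searched. A match is a run of letters and not a measured site.

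Among the 4 reductases Cyb5r1 was the most abundant in knockout hearts and was far higher than in control hearts. Cyb5r1 (ENSMUSG00000026456.18, chr1:134405559-134411740, plus strand) is a membrane-bound reductase that has been linked, together with P450 oxidoreductase, to the peroxidation of membrane lipids. It had 126, 134 and 111 CPM in knockout hearts, from 2382, 2308 and 1375 reads, against 10.6, 7.67 and 9.41 CPM in control hearts, from 141, 69 and 81 reads. The groups did not overlap, and every knockout heart was far above every control heart. The mean was 124 ± 11.9 CPM in knockout hearts and 9.23 ± 1.48 CPM in control hearts. The log2 fold change was 3.74 (SE 0.15), a 13.3-fold difference, which ranked 57 among 14302 tested genes.

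Cyb5r3 and Cyb5r4 were also higher in knockout hearts, by smaller factors. Cyb5r3 (ENSMUSG00000018042.17, chr15:83153494-83172592, minus strand) is the main NADH-cytochrome b5 reductase of most tissues and is found on the endoplasmic reticulum and the outer mitochondrial membrane. It had 64.1, 59.2 and 53.8 CPM in knockout hearts, against 25.1, 26.8 and 25.1 CPM in control hearts. The groups did not overlap, and the control hearts lay closer together than the knockout hearts. The mean was 59.02 ± 5.14 CPM in knockout hearts and 25.7 ± 0.966 CPM in control hearts, a log2 fold change of 1.20 (SE 0.11). An antisense gene, Gm49463, shares 243 exon bases with Cyb5r3 in the annotation, and no source used here says if reads were counted by strand.

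Cyb5r4 (ENSMUSG00000032872.16, chr9:87022014-87077774, plus strand) encodes a reductase fused to its own cytochrome b5 domain. It had 26.48, 29.96 and 31.96 CPM in knockout hearts, against 19.0, 19.7 and 18.1 CPM in control hearts. Every knockout heart was above every control heart. The mean was 29.5 ± 2.77 CPM in knockout hearts and 18.9 ± 0.779 CPM in control hearts, and the log2 fold change was 0.64 (SE 0.12). Of the 31-base words in its transcripts, 24.6% also occur in other genes, most of them in Gm11868, which had 2 reads in all knockout hearts and 0 in all control hearts. For the other 5 members this share was 0.0691 to 6.16%, and no member shared such a word with another.

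Cyb5r2 (ENSMUSG00000048065.8, chr7:107748455-107758032, minus strand), a further reductase of the family, was read at a low level in the knockout hearts. It had 40, 31 and 23 reads there, or 2.12, 1.80 and 1.85 CPM, against 0, 0 and 0 reads in control hearts. The 94 knockout reads give 1.94 CPM over the group, at least 19.97-fold higher than the 0.0971 CPM that a floor of 3 reads over the control group allows. Such a floor covers counting error only. Cyb5r2 shares 129 exon bases with Ppfibp2 on the opposite strand, which had 742 reads in knockout hearts and 802 reads in control hearts.

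**Figure D1:**
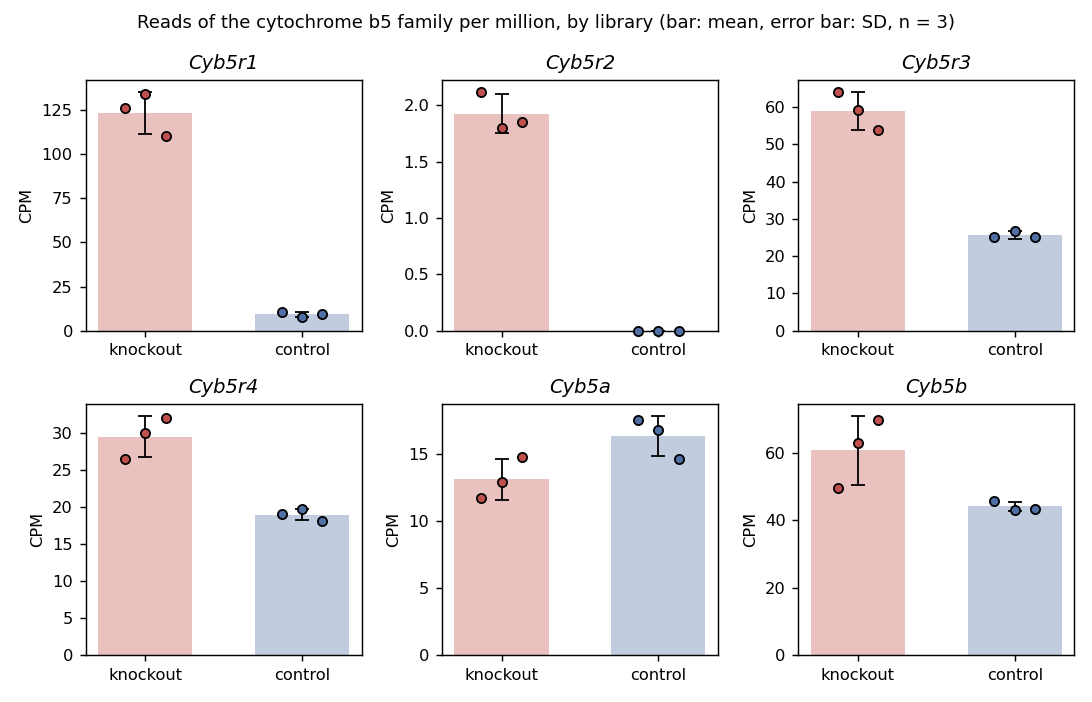
CPM of the 6 family members in each heart (points), with the mean (bar) and SD (error bar, n = 3), knockout hearts on the left and control hearts on the right of each panel. The groups do not overlap for any gene except Cyb5a, and Cyb5r2 has no reads in control hearts.

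The 2 carriers differed from each other. Cyb5b (ENSMUSG00000031924.4, chr8:107150640-107187471, plus strand) encodes the cytochrome b5 of the outer mitochondrial membrane. It had 49.6, 62.9 and 69.6 CPM in knockout hearts, against 45.6, 43.1 and 43.4 CPM in control hearts. The groups did not overlap, but the lowest knockout heart lay close to the highest control heart. The mean was 60.7 ± 10.2 CPM in knockout hearts and 44.0 ± 1.35 CPM in control hearts, with a log2 fold change of 0.46 (SE 0.14). This value was 0.59 without knockout heart 1, 0.44 without knockout heart 2, 0.36 without knockout heart 3 and 0.45 to 0.49 without 1 control heart.

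Cyb5a (ENSMUSG00000024646.13, chr18:84838704-84879871, plus strand) encodes the cytochrome b5 of the endoplasmic reticulum and, as a shorter form, of red cells. It had 11.7, 12.9 and 14.7 CPM in knockout hearts, against 17.5, 16.8 and 14.6 CPM in control hearts. The groups overlapped, since the highest knockout heart reached the lowest control heart. The mean was 13.1 ± 1.54 CPM in knockout hearts and 16.3 ± 1.502 CPM in control hearts. The log2 fold change was -0.32 (SE 0.14), and with library size alone it was 0.36.

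By the threshold used for all genes 5 of the 6 members (Cyb5a aside) counted as higher in knockout hearts, and 4 of the 6 once knockout heart 2 or 3 or any 1 control heart was left out, beside 18.7% of all tested genes called higher and 36.5% called in either direction. The groups did not overlap for 5 of the 6, beside 50.6% of all genes. Since the family was picked on this contrast, nothing is read from these shares. The authors' deposited table gives log2 fold changes of 3.77 (SE 0.18) for Cyb5r1, 1.23 (SE 0.16) for Cyb5r3, 0.67 (SE 0.17) for Cyb5r4, 0.49 (SE 0.17) for Cyb5b and -0.29 (SE 0.20) for Cyb5a. In the plot of log2 fold changes, library size alone moved these 5 members up by nearly the same amount. Their order could therefore not change with the scaling, and nothing is read from it.

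**Figure D2:**
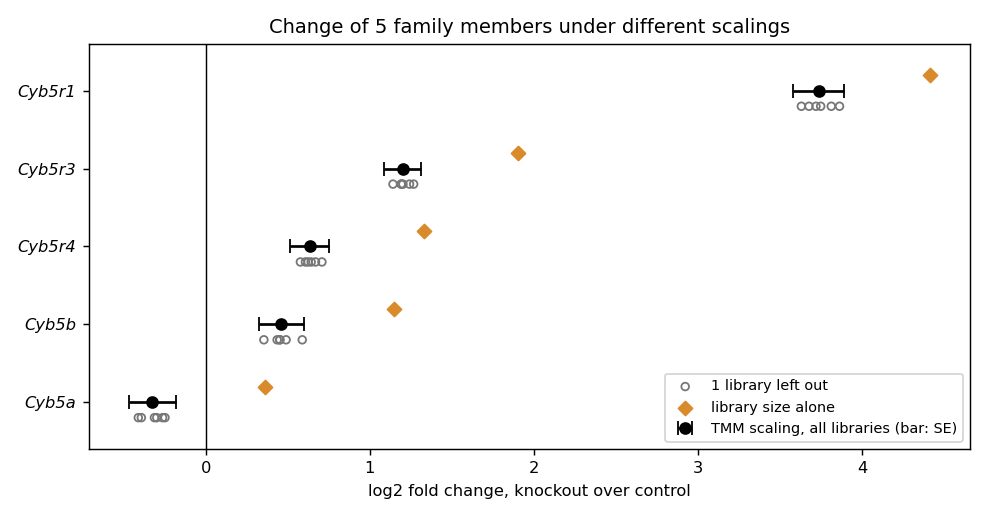
Log2 fold change of knockout over control for the 5 members with reads in both groups, with TMM scaling (black, bar: SE), with library size alone (diamonds) and with 1 heart left out (open circles). Cyb5r1 lies near 3.74 and the other 4 between -0.32 and 1.20 with TMM scaling, and library size alone moves every value up, with Cyb5a at 0.36.

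To compare levels between genes, CPM was divided by the length of each gene's merged exons in kilobases. On this scale Cyb5r1 was first of the 6 in knockout hearts, with 27.9 ± 2.68 CPM per kilobase, and the fifth in control hearts, with 2.08 ± 0.333. In knockout hearts Cyb5b (13.9 ± 2.33) and Cyb5r3 (13.7 ± 1.20 CPM per kilobase) came next, and their ranges overlapped. Cyb5r4 (4.37 ± 0.412) and Cyb5a (4.22 ± 0.496 CPM per kilobase) also overlapped in knockout hearts, and Cyb5r2 was last at 0.694 ± 0.0625. In control hearts the order was Cyb5b at 10.1 ± 0.308, Cyb5r3 at 5.97 ± 0.225, Cyb5a at 5.26 ± 0.484, Cyb5r4 at 2.81 ± 0.116, Cyb5r1 and then Cyb5r2 at 0 CPM per kilobase. None of the ranges of neighbours in the control order overlapped.

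Merged exons include those of retained introns, which lengthens some genes more than others. With the longest protein-coding transcript, chosen after seeing the data, Cyb5r1 was again first in knockout hearts (67.3) and the fifth in control hearts (5.02 CPM per kilobase). Cyb5a was then first in control hearts at 19.6, ahead of Cyb5b at 10.2 and Cyb5r3 at 10.1 CPM per kilobase. The place of Cyb5r1 therefore did not depend on the length used, whereas the order of Cyb5a and Cyb5b did.

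Shares of the summed level per kilobase do not depend on how the libraries are scaled. Cyb5r1 made up 59.2, 61.5 and 58.2% of the 4 reductases in knockout hearts, against 21.6, 15.9 and 19.9% in control hearts. Cyb5r3 made up 29.4 ± 1.47% in knockout hearts and 55.0 ± 2.22% in control hearts. Cyb5r4 made up 9.43 ± 1.48% in knockout hearts and 25.9 ± 0.842% in control hearts. The leading reductase transcript was thus Cyb5r1 in each knockout heart and Cyb5r3 in each control heart. In reads alone, without any length, Cyb5r1 had 1.97, 2.26 and 2.06 reads per Cyb5r3 read in knockout hearts, against 0.422, 0.286 and 0.375 in control hearts.

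Between the carriers, Cyb5b had 4.25, 4.88 and 4.73 reads per Cyb5a read in knockout hearts, against 2.60, 2.57 and 2.97 in control hearts. The groups did not overlap in this ratio, although those of Cyb5a itself did. Cyb5b made up 76.6 ± 1.31% of the summed level of both carriers in knockout hearts and 65.8 ± 1.79% in control hearts. With the longest protein-coding transcript these shares were 47.1% in knockout hearts and 34.3% in control hearts.

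The reductases summed to 46.7 ± 3.33 CPM per kilobase in knockout hearts and 10.9 ± 0.208 in control hearts. The ratio of reductase to cytochrome b5 transcript levels per kilobase was 3.18, 2.65 and 2.07 in knockout hearts, against 0.688, 0.713 and 0.727 in control hearts. Reductase transcripts were above those of the carriers in every knockout heart and below them in every control heart. Knockout hearts spread more widely in this ratio than control hearts.

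**Figure D3:**
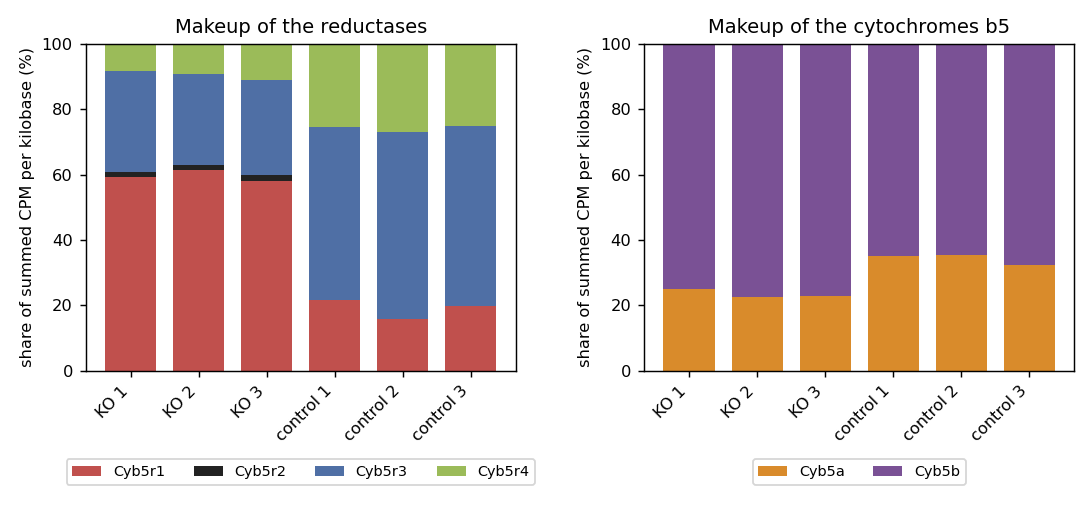
Share of each gene in the summed CPM per kilobase of merged exons, by heart, for the 4 reductases (left) and the 2 cytochromes b5 (right), with knockout hearts left of control hearts. Cyb5r1 holds 58.2 to 61.5% of the reductases in knockout hearts and 15.9 to 21.6% in control hearts, and Cyb5b holds a larger share of the carriers in knockout hearts.

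The enzymes that take electrons from cytochrome b5 went in both directions. Of 19 acceptors listed, 14 were tested, of which 5 rose, 2 fell and 7 did not pass, beside 18.7% and 17.8% of all genes called higher and lower. Their median log2 fold change was 0.15, beside -0.01 for all genes. With library size alone 8 were called higher and 0 lower. Without knockout heart 2 or without control heart 2 the number called was 4 in place of 7.

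Among desaturases, Fads3, which acts on sphingoid bases, rose. It had 106, 74.6 and 68.8 CPM in knockout hearts, against 33.8, 33.1 and 33.9 CPM in control hearts, with a log2 fold change of 1.31 (SE 0.16, edgeR adjusted p = 0.000289). All knockout hearts were above the control hearts, and knockout heart 1 stood highest. Tmem189, the desaturase that makes plasmalogens, had 22.4 ± 1.44 CPM in knockout hearts and 12.0 ± 0.974 CPM in control hearts, a log2 fold change of 0.90 (SE 0.13, edgeR adjusted p = 0.000626). Degs1, which makes ceramide from dihydroceramide, had a smaller rise of 0.40 on the log2 scale (SE 0.11, edgeR adjusted p = 0.0185) that was not called without knockout heart 2 or control heart 2.

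Scd2, a stearoyl-CoA desaturase that makes oleate, fell. It had 26.1, 22.4 and 27.2 CPM in knockout hearts, against 41.2, 38.2 and 44.0 CPM in control hearts, with a log2 fold change of -0.71 (SE 0.12, edgeR adjusted p = 0.00158). With library size alone it was -0.01 and not called. The desaturases Scd1 (0.20, SE 0.72), Scd4 (-0.44), Fads1 (0.10), Fads2 (-0.34) and Fads6 (-0.10) were not called. Scd1 had 21.7, 18.1 and 140 CPM in knockout hearts, against 93.4, 28.4 and 31.7 CPM in control hearts. Its spread within each group was wider than the difference between the group means.

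In sterol synthesis, Msmo1, a methyl sterol oxidase, had 9.13 ± 0.940 CPM in knockout hearts and 4.69 ± 1.52 CPM in control hearts, a log2 fold change of 0.94 (SE 0.23, edgeR adjusted p = 0.00972). Cyp51, the sterol demethylase, had a log2 fold change of 0.58 (SE 0.18, edgeR adjusted p = 0.0272), which was not called without knockout heart 2 or 3 or without control heart 2 or 3. The sterol desaturase Sc5d was not called, at 0.10. Cmah, which makes N-glycolylneuraminic acid, had 3.18 ± 0.749 CPM in knockout hearts and 5.54 ± 0.131 CPM in control hearts, a log2 fold change of -0.79 (SE 0.22, edgeR adjusted p = 0.0170). This was not called with library size alone, without knockout heart 2 or without any 1 control heart. In the amidoxime reducing component, Marc2 had 17.6 ± 3.09 CPM in knockout hearts and 13.8 ± 2.32 CPM in control hearts (log2 fold change 0.35, edgeR adjusted p = 0.150). Marc1 had 2 reads in knockout hearts and 0 in control hearts and was not tested.

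Genes related to the family by domain or by reaction were listed as well. The first list, named for the cytochrome b5 domain, had 12 tested genes, of which 4 rose, none fell and 8 did not pass, beside 18.7% of all genes called higher and 36.5% called in either direction. Its median log2 fold change was 0.19. Pgrmc2, a haem-binding membrane protein with a cytochrome b5-like domain, had 33.5, 41.9 and 46.3 CPM in knockout hearts, against 19.1, 18.7 and 16.5 CPM in control hearts (log2 fold change 1.159, SE 0.14, edgeR adjusted p = 0.000281). Its paralogue Pgrmc1 had 22.7 ± 0.794 CPM in knockout hearts and 11.9 ± 1.95 CPM in control hearts (log2 fold change 0.93, SE 0.14, edgeR adjusted p = 0.000959). Both were higher in each knockout heart than in any control heart. Hacd1 to Hacd4, which the list also holds, are dehydratases of very-long-chain fatty acid synthesis and carry no cytochrome b5 domain. Hacd4 (1.17, SE 0.18, edgeR adjusted p = 0.00106) and Hacd1 (0.48, SE 0.13, edgeR adjusted p = 0.0150) rose, so Pgrmc1 and Pgrmc2 were the only called genes among the other 8. The reductase-like Cyb5rl had a log2 fold change of 0.31 (edgeR adjusted p = 0.223), and sulfite oxidase, Suox, one of -0.46 (edgeR adjusted p = 0.0812). Hacd1 was not called without knockout heart 2 or control heart 3.

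Of 15 tested flavin and ferredoxin redox genes outside the family, 5 rose, 2 fell and 8 did not pass, beside 18.7% and 17.8% of all genes called higher and lower. Their median log2 fold change was 0.14. Txnrd1, cytosolic thioredoxin reductase, had 109, 72.9 and 68.5 CPM in knockout hearts, against 34.5, 32.8 and 37.8 CPM in control hearts (log2 fold change 1.26, SE 0.18, edgeR adjusted p = 0.000590). Gsr, glutathione reductase, had 17.0 ± 0.449 CPM in knockout hearts and 10.2 ± 1.14 CPM in control hearts (log2 fold change 0.73, SE 0.14, edgeR adjusted p = 0.00260). Neither gene's groups overlapped. Nqo2, a quinone reductase, fell to 10.5 ± 1.59 CPM in knockout hearts, against 18.5 ± 1.05 CPM in control hearts (log2 fold change -0.82, SE 0.15, edgeR adjusted p = 0.00214). Nos3, endothelial nitric oxide synthase, had 22.7 ± 1.99 CPM in knockout hearts and 32.1 ± 2.05 CPM in control hearts (log2 fold change -0.50, SE 0.12, edgeR adjusted p = 0.00822). With library size alone Nqo2 was not called and Nos3 was 0.20.

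Por, the P450 oxidoreductase that also reduces cytochrome b5, had 26.03 ± 0.993 CPM in knockout hearts and 19.99 ± 1.58 CPM in control hearts. Its log2 fold change of 0.38 (SE 0.12, edgeR adjusted p = 0.0291) was not called without knockout heart 2 or 3, without control heart 2 or 3, or with DESeq2. Mtrr, methionine synthase reductase (0.44, SE 0.13, edgeR adjusted p = 0.0275), and Fdxr, ferredoxin reductase (0.74, SE 0.23, edgeR adjusted p = 0.0321), were likewise not called when knockout heart 2 or any 1 control heart was left out. Mtrr was also not called with DESeq2, and Fdxr was not called without knockout heart 3 or with limma-voom. Over both lists, 11 of 27 tested genes were called, beside 36.5% of all genes. The count was 7 without knockout heart 2 or without control heart 3 and 19 with library size alone.

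**Figure D4:**
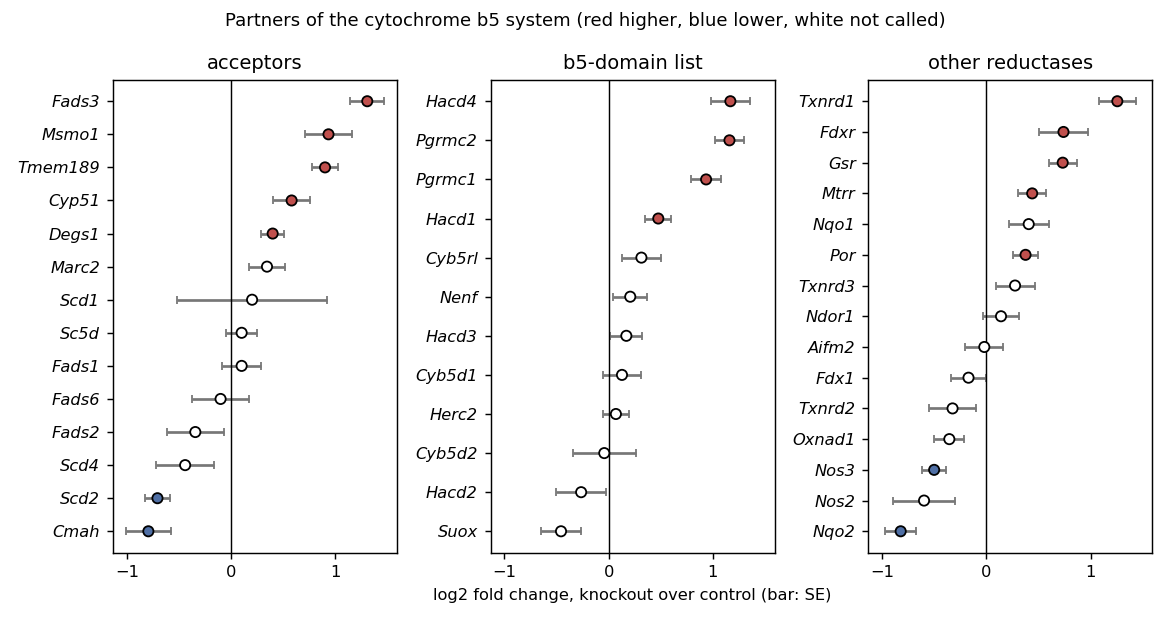
Log2 fold change of knockout over control (bar: SE) for the tested acceptors of electrons from cytochrome b5, the list named for the cytochrome b5 domain and other redox genes, with called genes in red (higher in knockout) or blue (lower). Fads3, Hacd4, Pgrmc2 and Txnrd1 lie above 1, and no gene of the middle list was called lower.

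Haem proteins known as targets of reduction through Cyb5r3, and their relatives, were listed in full. Mb, the oxygen store of muscle, had 1644 ± 433 CPM in knockout hearts and 3183 ± 264 CPM in control hearts, a log2 fold change of -0.95 (SE 0.22, edgeR adjusted p = 0.00773), and was not called with library size alone (-0.27). Cytoglobin, Cygb, was not called at 0.30. The haemoglobin genes Hba-a1 (0.69), Hba-a2 (0.92), Hbb-bs (0.84) and Hbb-bt (0.68) were not called either, with edgeR adjusted p-values of 0.119 to 0.235. Of the soluble guanylate cyclase subunits, Gucy1a3 had a log2 fold change of -0.37 (edgeR adjusted p = 0.137) and Gucy1b3 one of 0.004 (edgeR adjusted p = 0.988). Neuroglobin, Ngb, had 11 reads in knockout hearts and 5 in control hearts and was not tested.

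The hearts expressed cardiomyocyte markers at 65684 to 67884 CPM, summed over 10 genes, in knockout hearts and at 93157 to 95344 CPM in control hearts. Ttn held most of this sum, with means of 43850.3 CPM in knockout hearts and 54474.5 CPM in control hearts. It was among the 6 genes not called. Of these 10, Myh7 was called higher (log2 fold change 3.42) and Myh6 (-1.32), Ryr2 (-1.61) and Actc1 (-0.70) lower, the last not with library size alone, without knockout heart 2 or 3 or without control heart 2 or 3. Endothelial markers summed to 566 to 697 CPM in knockout hearts and 780 to 870 CPM in control hearts, with 5 of 10 called lower (Kdr, Flt1, Tek, Cdh5 and Tie1), none of which was called lower with library size alone. Cdh5, Tek and Tie1 were also not called without knockout heart 2 or without control heart 2. Fibroblast markers summed to 1762 to 3146 CPM in knockout hearts and 1274 to 1800 CPM in control hearts, with Postn alone called among 10, and all 10 called higher with library size alone. Macrophage markers summed to 231 to 277 CPM in knockout hearts and 215 to 239 CPM in control hearts, with Lyz2 alone called among 10, and 9 called higher with library size alone. Smooth muscle and pericyte markers summed to 557 to 655 CPM in knockout hearts and 815 to 1041 CPM in control hearts, with 2 of 8 called higher (Cnn1 and Cspg4) and 2 lower (Acta2 and Rgs5). Rgs5 was not called with library size alone, without any 1 knockout heart or without control heart 1 or 2, and Cspg4 was not called without knockout heart 2 or any 1 control heart. Erythroid markers summed to 1440 to 2942 CPM in knockout hearts and 522 to 1795 CPM in control hearts, with Alas2 alone called among 7, and all 7 called higher with library size alone. Alas2 was not called with the stricter filter, without knockout heart 2 or 3 or without control heart 1 or 2. Adipocyte markers summed to 146 to 329 CPM in knockout hearts and 209 to 331 CPM in control hearts, with none of 6 called. Within their groups all 6 were highest in knockout heart 3 and control heart 1, where Scd1 was highest too. Adipoq had 11.9 and 6.39 CPM in these hearts, against 0.478 to 1.28 CPM in the others. A link between fat content and Scd1 was not tested. The 6 neutrophil markers summed to 1.39 to 2.66 CPM in knockout hearts and 1.39 to 2.56 CPM in control hearts. Csf3r alone among them was tested and was not called (-0.13), and Ly6g was at 0 in every heart. Of all tested genes 18.7% were called higher and 17.8% lower. With library size alone 8093 of 14302 were called higher and 552 lower. No trait of a cell type is read from these counts. The part of these cell types in the family's values was not tested, and in whole hearts fewer cells of a type and less RNA per cell cannot be told apart.

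The genes whose log2 CPM followed each member most closely over the 6 hearts were found by Pearson's r. For Cyb5r1 these were Cdv3 (r = 0.9998), Gtpbp4 (0.9996) and Aars (0.9992), the last being cytosolic alanyl-tRNA synthetase. For Cyb5r2 they were Xpot (0.9986), the tRNA exporter, Nop58 (0.9984) and Vmn2r3 (0.9984), and for Cyb5r3 they were Kif5b (0.9990), Gpnmb (0.9987) and Bend4 (0.9985). Cyb5r2 and Vmn2r3 had 0 reads in every control heart, so their control log2 CPM was set by the prior count of 2. Cyb5r4 was followed by Usf1 (0.9999), Arf2 (0.9992) and Vps13b (0.9990). Of these, Usf1 (log2 fold change 0.27, edgeR adjusted p = 0.134) and Vps13b (0.16, edgeR adjusted p = 0.240) were not called. Arf2 was called (0.66, edgeR adjusted p = 0.00206). Pearson's r does not measure the size of a difference. Since 2 groups of 3 hearts set most of this measure, 187 of 14301 genes had r above 0.99 with Cyb5r1, 139 with Cyb5r2, 137 with Cyb5r3 and 45 with Cyb5r4. Cyb5a had 9 such genes, led by Rock1 (0.9968), Clmn (0.9968) and Sun2 (0.9962), and Cyb5b had 5, among them Mettl6 (0.9968) and Taf5l (0.9926). These values describe 6 hearts and carry no test.

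The tested genes next to each member on the chromosome were taken by position, after the members' values had been seen. Of 13 such neighbours, 3 were called higher, 1 was called lower and 9 were not called, beside 36.5% of all genes called. Beside Cyb5r1, Tmem183a, 43580 bases before it, had 29.0 ± 1.45 CPM in knockout hearts and 16.5 ± 1.58 CPM in control hearts (log2 fold change 0.81, SE 0.12, edgeR adjusted p = 0.000835). Adipor1, an adiponectin receptor gene 3638 bases after Cyb5r1, had 107 ± 4.46 CPM in knockout hearts and 98.3 ± 3.30 CPM in control hearts and was not called (0.13, edgeR adjusted p = 0.377). Beside Cyb5r4, Snap91, a clathrin assembly gene 141360 bases before it, had a log2 fold change of 1.56 (SE 0.14, edgeR adjusted p = 4.90e-05), larger than that of Cyb5r4 itself. The other called neighbours were A4galt, 54130 bases after Cyb5r3 (-0.92, SE 0.19, edgeR adjusted p = 0.00509, not called with library size alone), and Gm10156, 105007 bases after Cyb5r2 (1.40, SE 0.46, edgeR adjusted p = 0.0366, not called with DESeq2, without knockout heart 2 or 3 or without control heart 2 or 3). Cep162, after Cyb5r4, was not called (-0.11), nor were the neighbours of Cyb5a and Cyb5b on either side.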

How the data were processed

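Total RNA of 3 knockout and 3 control hearts was sequenced as paired-end TruSeq libraries, per the labels' protocols. The submitters' processing notes name the mm10 build and, without roles, DESeq2 1.16.1, featureCounts 1.5.1, HISAT2 2.0.5 and SAMtools 1.5. The authors deposited whole-number read counts per gene, 1 column per mouse, and normalised values, a signal in which counts are divided by a size factor. The authors' deposited table holds log2 fold changes with SE, a test statistic (a score) and a p-value per gene. No source used here says if reads were counted by strand.

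Counts were tested as deposited with edgeR 4.0.16 in R 4.3.3 (quasi-likelihood test, TMM scaling, filterByExpr with a minimum count of 10, Benjamini-Hochberg adjustment over 14302 genes, calls at an adjusted p under 0.05), after the code was tested on simulated data. The SE is the size of the log2 fold change over the square root of F. Fold bounds use a floor of 3 counts over a group. Likeness used log2 CPM with a prior count of 2. Coordinates and lengths came from GENCODE M21 (GRCm38), which matched 51596 of 51875 Ensembl identifiers, and the 250-base windows from RefSeq (GRCm38.p6).

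The members, gene lists and the rule for named genes were chosen with earlier results of these data known. The rule took all members, Elac2, up to 6 called genes per list by adjusted p, all globin, guanylate cyclase and amidoxime reductase genes, and the 3 genes most like each member. One gene that this rule names is not reported here. No 2 libraries agreed within sampling noise (chi-square per degree of freedom at least 8.93 within groups). Alternatives were other scalings, filters and lengths, limma-voom (limma 3.58.1), DESeq2 1.42.0, a replicate block and leaving out each heart.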

Additional observations from a re-analysis of the deposited data

How the results depend on the processing

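Across 16 alternatives, the log2 fold change was 3.63 to 4.42 for Cyb5r1, 1.14 to 1.90 for Cyb5r3, 0.58 to 1.33 for Cyb5r4, 0.36 to 1.15 for Cyb5b and -0.41 to 0.36 for Cyb5a. Since these genes were picked on this contrast, the ranges show only how the scaling and each heart move the values. Library size alone called 8645 genes in place of 5215, called 19 in place of 11 related b5-domain and redox genes, and turned Cyb5a to 0.36. The other scalings stayed near the main fit. RLE scaling in edgeR called 5219 genes and TMM on nuclear genes alone called 5235, each with 11 related genes. Cyb5a was -0.33 with RLE and -0.31 with TMM on nuclear genes. With 1 heart left out, 3694 to 5837 genes, 4 to 5 members, 4 to 9 acceptors and 7 to 14 related genes were called. These fits test fewer hearts. Same-numbered hearts did not deviate together (r = -0.20, 0.09 and -0.09), so the numbers do not pair them. With a replicate block 4293 genes and 4 members were called, Cyb5b (0.45) no longer. The stricter filter also left 4 members called, since Cyb5r2 was not tested there. Another transcript length moved the levels per kilobase of Cyb5r1, Cyb5r3, Cyb5r4 and Cyb5a by more than their SD. Depth limits Cyb5r2, with 23 to 40 reads per knockout heart and 0 reads in control hearts, and Marc1.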
